A study of Mus musculus with 10 samples.

Results

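In the cMyc-Bcl2 leukaemias of a Dnmt3b-knockin mouse, 161 windows of 1000 bp were unmethylated in both WT libraries and methylated in both knockin libraries, out of 54108 autosomal windows measured. The pooled level of a window was the share of the read calls at its measured cytosines that were methylated. A window was selected when this level was under 10% in both WT and 30% or more in both Dnmt3b-knockin libraries. It had to hold at least 3 CpG cytosines with 10 or more reads in all 4 libraries. The windows were chosen by their cMyc-Bcl2 levels, so those levels are a description and carry no test. The 6 MLL-AF9 libraries took no part in the choice. The rule took 0.298% of all measured windows and 161 of the 17775 windows under 10% in both WT libraries. The mirror of the rule, 30% or more in both WT and under 10% in both knockin libraries, was met by 2 windows.

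The study profiled genomic DNA of leukaemic mouse spleen by reduced representation bisulfite sequencing, which sequences CpG-rich MspI fragments after bisulfite has turned unmethylated cytosines into bases read as thymine. The knockin is described as a tetracycline-inducible Dnmt3b mouse model, and the comparison asks how Dnmt3b-mediated methylation affects leukaemia. The cMyc-Bcl2 leukaemias, driven by the transcription factor cMyc and the apoptosis inhibitor Bcl2, gave 2 WT and 2 Dnmt3b-knockin libraries of leukaemic spleen cells. The MLL-AF9 leukaemias, driven by a fusion oncoprotein, gave 3 WT and 3 Dnmt3b-knockin libraries of c-kit+ leukaemic spleen cells. The labels name no strain, age, sex or inducer treatment and do not say whether replicates came from separate animals, so the spread between libraries may be technical.

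Dnmt3b is a de novo DNA methyltransferase, one of the enzymes that place methyl groups on CpGs that carried none. In mammalian cells most CpGs are methylated, whereas CpG-dense stretches, the CpG islands, usually are not, and many islands mark promoters. Islands at genes of developmental transcription factors, silent in blood, are known to gain methylation in cancers more often than islands of housekeeping genes.

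The libraries held 14446933 to 46762220 CpG read calls. Over mitochondrial CpGs, a guide to unconverted cytosines, 0.910 to 3.20% of calls were methylated in the 10 libraries. Each line of the files is 1 cytosine of a CpG on 1 strand, so a CpG can be listed on both strands. Relative to the median of the 4 cMyc-Bcl2 libraries, read depth over chromosome 15 was 1.21 in WT replicate 2 and over chromosome 16 was 1.33 in knockin replicate 1. These chromosomes held 9 and 1 of the 161 windows.

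Promoter sequences show the CpGs behind 3 of the named windows. No genome of the files' build, mm9, was used, so promoters were placed by the spacing of their CpGs. The sequences are RefSeq promoters of GRCm38.p6, from 250 bases before to 50 after the start site, and capitals mark the CpGs measured in the selected window.

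Grip2: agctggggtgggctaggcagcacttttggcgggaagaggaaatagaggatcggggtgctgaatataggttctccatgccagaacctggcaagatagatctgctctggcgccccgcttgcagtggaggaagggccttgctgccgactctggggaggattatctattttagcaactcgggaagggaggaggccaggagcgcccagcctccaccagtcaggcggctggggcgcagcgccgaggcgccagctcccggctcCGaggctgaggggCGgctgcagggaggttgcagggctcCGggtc

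Dmrta2: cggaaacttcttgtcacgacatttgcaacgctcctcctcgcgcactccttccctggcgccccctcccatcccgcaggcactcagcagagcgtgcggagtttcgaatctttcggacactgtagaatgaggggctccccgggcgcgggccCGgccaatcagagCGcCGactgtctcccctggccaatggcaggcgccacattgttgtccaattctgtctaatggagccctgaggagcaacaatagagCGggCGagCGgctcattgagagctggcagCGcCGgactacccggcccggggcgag

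Ptf1a: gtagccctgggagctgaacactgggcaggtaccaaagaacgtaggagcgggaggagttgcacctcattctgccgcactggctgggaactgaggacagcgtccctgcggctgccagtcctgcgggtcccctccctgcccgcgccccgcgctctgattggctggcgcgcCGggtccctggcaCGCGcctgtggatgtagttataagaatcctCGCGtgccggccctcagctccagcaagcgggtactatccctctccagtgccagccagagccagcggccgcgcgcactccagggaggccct

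The Grip2 promoter, of a scaffold protein of glutamate receptors, holds 16 CpGs, of which 3 were measured. Its pooled level there was 4.76% and 5% in the WT libraries and 81.5% and 77.8% in the knockin libraries, and all 3 cytosines were high in the knockin, from 69.4 to 85.8% on the mean of both. In the Dmrta2 promoter, of a transcription factor of the developing nervous system, 8 of 26 CpGs were measured, at 3.23% and 2.37% in WT and 31.2% and 34.4% in the knockin. The Ptf1a promoter, of a pancreatic and neural transcription factor, holds 23 CpGs, 5 of them measured. Here the 2 knockin libraries differed, at 5.05% in replicate 1 and 41.0% in replicate 2, against 2.56% and 0.909% in WT. The Ptf1a window as a whole reached 37.0% and 43.4% in the knockin libraries, so its level in replicate 1 came from measured CpGs beyond the printed sequence.

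Among the 161 windows the level was 0 to 9.96% in WT replicate 1 (median 6.81%) and 0 to 9.98% in WT replicate 2 (median 5.70%). In the knockin it was 30.1 to 96.5% in replicate 1 (median 40.9%) and 30 to 97.1% in replicate 2 (median 42.4%). Most windows were therefore partly methylated in the knockin: both libraries were at 50% or more in 18 windows, at 70% or more in 5 and at 90% or more in 1. The mean of the knockin libraries exceeded that of the WT libraries by 36.6 points on the median, with quartiles of 31.2 and 43.5. The knockin libraries lay within 10 points of each other in 98 windows and more than 30 apart in 4, and replicate 1 was the higher in 79. Across the 161 windows their levels had a Pearson r of 0.397 and a Spearman rho of 0.260, within a range that the rule restricts.

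**Figure D1:**
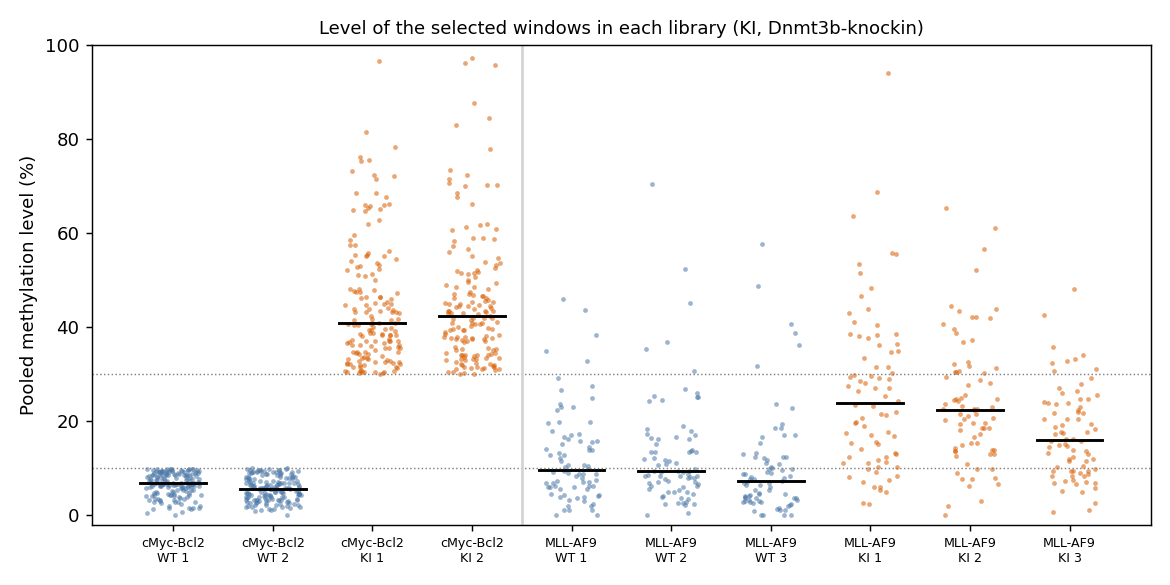
Pooled methylation level in percent (vertical axis) of the selected windows in each library; a point is 1 window, the bar is the median, dotted lines mark the 10% and 30% bounds. All 161 windows are shown for the 4 cMyc-Bcl2 libraries and the 78 that were measured for the 6 MLL-AF9 libraries, where the medians lie at 7.20 to 9.70% in WT and 16 to 23.9% in the knockin.

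A window at 30% or more in one knockin library did not always reach it in the other. Of windows under 10% in both WT libraries, 416 were at 30% or more in knockin replicate 1 and 325 in replicate 2. The 161 shared windows are 38.7% of the first list and 49.5% of the second. A further 419 windows reached the bound in 1 knockin library alone, 1920 lay between, and 15275 stayed under 10% in both.

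The bound at 30% cut through a continuous range. Just inside it lay windows at 30% in the lower knockin library on chromosome 1 (mm9 positions 123074621 to 123074935), 30.1% on chromosome 6 (91360975 to 91361000, near the Wnt ligand gene Wnt7a) and 30.1% on chromosome 1 (74997038 to 74997991). Just outside lay windows at 29.95% on chromosome 11 (98188418 to 98188696), 29.87% on chromosome 14 (50402753 to 50402929) and 29.83% on chromosome 12 (109244305 to 109244754). Windows held 30 read calls or more in each of the 4 libraries, where a read over several CpGs counts at each of them. The 95% Wilson intervals of the knockin levels had a median half-width of 5.54 points. In 160 of 161 windows the intervals of both knockin libraries lay above those of both WT libraries, a separation that the rule itself imposes. The lower ends of both knockin intervals were at 30% or more in 94 windows. The upper ends of both WT intervals were under 10% in 36, so counting error alone could move many windows across a bound. These intervals cover counting error only. They take all calls as independent, so they are too narrow where a read covers several CpGs.

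The WT levels of the selected windows were low but not at the floor. All windows under 10% in both WT libraries had medians of 1.56% and 0.980% in the WT libraries, against 6.81% and 5.70% in the selected ones. Of the 9848 windows whose higher WT level was under 2%, 0 were selected, which allows a share of up to 0.0305%. The count was 20 of 4685 windows at 2 to under 5% and 141 of 3242 windows at 5 to under 10%. At under 2%, 99.5% of windows stayed under 10% in both knockin libraries, against 44.0% at 5 to under 10%. The selected windows were thus mostly those with some methylation in WT already.

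The selected windows were less CpG-dense than other WT-unmethylated windows. They held a median of 27 listed CpGs per 1000 bp (quartiles 17 and 44), counting every CpG listed in any library, against 45 (27 and 68) in windows under 10% in both WT libraries and 16 in all measured windows. The share selected fell across density classes, from 2.35% of WT-unmethylated windows with under 10 listed CpGs to 0.393% of those with 50 or more. Even so, 31 of the 161 windows held 50 or more CpGs, and the densest held 101. The measured part was short, with a median of 7 cytosines in 6 CpGs spanning 117 bp, against 18 cytosines and 270 bp in WT-unmethylated windows. Counting error is larger where few cytosines are measured, and 69 of the 161 windows had 10 cytosines or more.

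**Figure D2:**
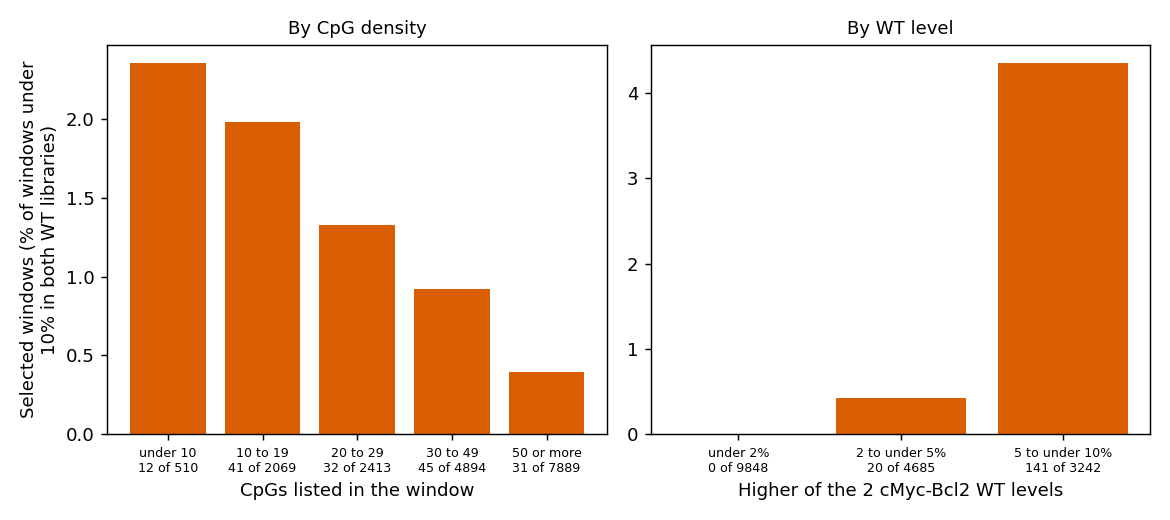
Share of windows under 10% in both WT libraries that were selected, in percent (vertical axes), by the CpGs listed in the window and by the higher of the 2 cMyc-Bcl2 WT levels (horizontal axes); the counts stand under each bar. The share falls from 2.35% to 0.393% with density and rises from 0 to 4.35% with the WT level.

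The windows lay on all 19 autosomes. Chromosome 2 held 19, chromosome 5 held 15, chromosome 13 held 13 and chromosome 1 held 12, while chromosome 17 held 2 and chromosome 16 held 1. As a share of WT-unmethylated windows this ranged from 0.176% on chromosome 16 to 1.87% on chromosome 13. The next selected window lay a median of 3178910 bp away, and 16 windows had another within 10000 bp.

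The 161 windows formed 158 runs, and the longest was 2 windows, of which there were 3. Of the 115 directly adjacent windows that were measured, 6 were selected too (5.22%), against 0.349% of the 13170 measured neighbours of WT-unmethylated windows, and 62 of the 161 had no measured neighbour. The first lay at Dmrta2 on chromosome 4 (109650155 to 109651094), where 46 cytosines were measured. Its windows were at 3.33% and 3.37%, and 4.55% and 1.16%, in the WT libraries, and at 39.4% and 37.0%, and 43.9% and 40.8%, in the knockin. The second lay on chromosome 5 (140016185 to 140017603), with its nearest end 2249 bp from the matched start site of Uncx, a homeobox factor of somites and neurons, at 5.77 to 7.79% in WT and 35.5 to 40.8% in the knockin. The third, on chromosome 17 (37186914 to 37187995), lay 4003 bp from the matched start site of Gabbr1, a subunit of the GABA-B receptor. It was at 5.31 to 9.66% in WT and 72.1 to 84.5% in the knockin, and the border between its windows falls inside 1 stretch of measured CpGs.

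The neighbours of selected windows were more methylated than those of windows that stayed unmethylated. A directly adjacent measured window existed for 99 of the 161. In 44 of the 99 (44.4%) the highest neighbour was at 10 to under 50% in WT, against 7.46% of the 10096 windows that stayed under 10% in both knockin libraries. All neighbours were under 10% in WT for 51.5%, against 89.3%. Neighbours that were themselves under 10% in both WT libraries, 46 in number, had medians of 17.8% and 14.3% in the knockin libraries, against 0.734% and 0.759% beside windows that stayed. The 46 include the 6 selected neighbours, which are high in the knockin by the rule. Of the 46, 69.6% were at 10% or more in both knockin libraries. The share was 1.97% beside windows that stayed, a class chosen for low knockin levels, and 4.87% beside all windows under 10% in both WT libraries. The mean level 1 kb away was 10.1 to 15.7% in WT and 27.6 to 35.6% in the knockin.

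**Figure D3:**
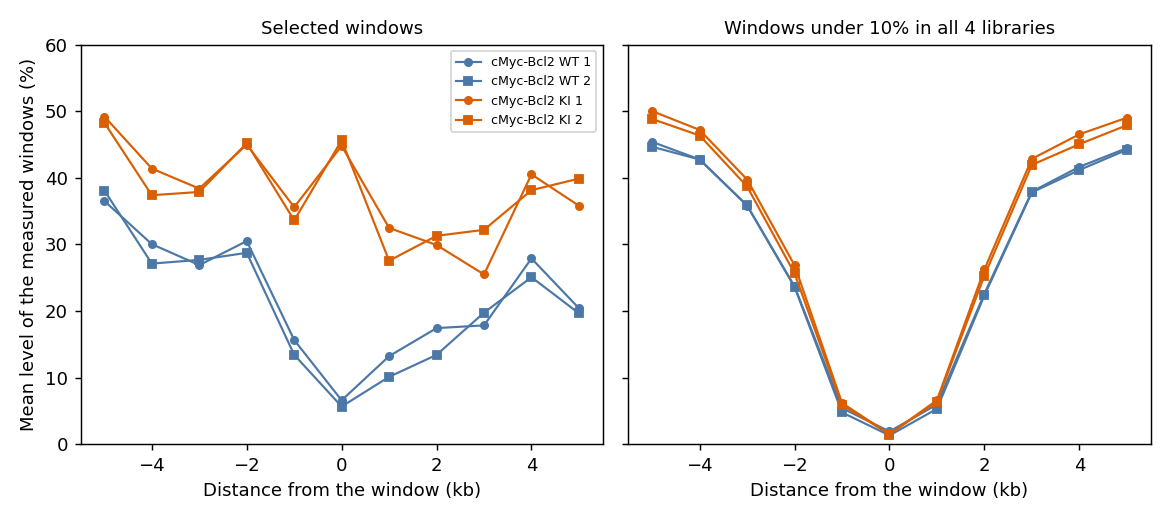
Mean pooled level in percent (vertical axis) of the measured windows at each distance in kb (horizontal axis) from the 161 selected windows and from the 15275 windows under 10% in all 4 libraries; lines are the 4 cMyc-Bcl2 libraries. At 2 kb toward lower coordinates the neighbours of selected windows are at 28.7 to 30.5% in WT and 45.0 to 45.2% in the knockin, over 35 windows. At 2 kb toward higher coordinates they are at 13.4 to 17.4% in WT and 29.9 to 31.3% in the knockin, over 28 windows.

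Inside the windows the methylation was uneven. Of their 2038 measured cytosines, 928 (45.5%) were at 30% or more in both knockin libraries and 1302 (63.9%) under 10% in both WT libraries. Every cytosine reached 30% in both knockin libraries in 13 windows, and fewer than 50% of them did in 78. In the 69 windows with 10 or more cytosines, the mean knockin level differed by a median of 71.9 points between the highest and the lowest cytosine. Deviations of single cytosines from their window's mean had an r of 0.377 between the knockin libraries (1572 cytosines) and of 0.542 between the cMyc-Bcl2 and MLL-AF9 knockin means (554 cytosines with 10 reads in all 6 MLL-AF9 libraries). The cMyc-Bcl2 knockin means had an r of 0.460 with the MLL-AF9 WT means over the same 554. Over the 1572 they had an r of 0.353 with the cMyc-Bcl2 WT means, so the pattern was shared with WT libraries as well. The 0.377 compares single libraries and the other values compare means, over unlike sets of cytosines. Their sizes therefore do not rank the pairs. These cytosines share windows, reads and libraries. For 348 CpGs measured on both strands, the strands' mean levels were 43.3% and 42.7% in knockin replicate 1 and 43.2% and 43.3% in replicate 2.

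The 8 windows with the largest gap between the lowest knockin and the highest WT library, at most 1 per run, ranged from a gap of 92.9 to one of 51.4 points. The largest lay on chromosome 8 (113494083 to 113494551, 15 cytosines, 412 read calls or more in each library). It was at 3.38% and 3.59% in WT and 96.5% and 97.1% in the knockin, and the nearest matched promoter was 27172 bp away. This window had no value in MLL-AF9 at 10 reads per cytosine, but its cytosines held 57 or more pooled read calls in each MLL-AF9 library. There the WT libraries were at 7.81%, 97.5% and 98.3% and the knockin libraries at 66.4%, 91.2% and 91.2%. One MLL-AF9 WT library was thus nearly unmethylated and the other 2 nearly fully methylated, so the groups overlapped and the level varied within a genotype. The labels name no strain, and the part of genetic background in this level, in either model, was not tested.

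The second was the Grip2 promoter window on chromosome 6 (91757342 to 91757380), and the third the distal window of the Gabbr1 run, at 5.31% and 6.36% in WT and 78.2% and 82.9% in the knockin. In MLL-AF9 the same cytosines of the Gabbr1 window held 30 pooled read calls or more. They were at 16.2%, 61.0% and 66.7% in WT and 71.4%, 75.9% and 50.3% in the knockin, again with overlap. The fourth, on chromosome 15 (89672006 to 89672025), lay 266 bp from the matched start site of Syt10, a synaptotagmin of neurons, and rested on 3 cytosines of 2 CpGs. It was at 6.56% and 2.54% in WT and 76.0% and 87.5% in the knockin. The others lay on chromosome 13 (34240949 to 34240986), chromosome 12 (58635892 to 58635942), chromosome 3 (88987027 to 88987382) and chromosome 11 (103634914 to 103634940). The last was 549 bp from the matched start site of Wnt3, a Wnt ligand, at 7.50% and 4.38% in WT and 71.4% and 58.9% in the knockin.

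To give windows genes without converting coordinates, each RefSeq promoter was laid over the listed CpGs of its chromosome and kept where at least 12 CpGs fell in register and none out. Of 31396 autosomal promoters, 10740 were placed at 1 position. When the promoter sequence was mirrored, 15 were placed at 1 position or more. The table held no promoter of chromosome 18, so its 4 selected windows stay without a gene. A placed promoter overlapped the measured span of 12 selected windows, those of Igfbp2, Kif1a, Ptf1a, Wt1os, Dmrta2, Gm20052, Prkar1b, Grip2, Sprn, Elavl3, Moxd1 and Pmp22, of which Ptf1a and Dmrta2 were on the gene lists used. A start site lay within 5000 bp of 59 of the 157 windows outside chromosome 18 (37.6%), against 65.0% of 17293 WT-unmethylated windows. It was more than 50000 bp away for 60. An unplaced promoter may lie nearer. Promoters with under 12 CpGs could not be placed, and the median over all promoters was 7. The selected windows were less CpG-dense than other WT-unmethylated windows, so this may lower their share more, which was not tested.

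Genes of developmental transcription factors were the list most often near the windows. A start site of a listed developmental regulator, 114 of 284 of which could be placed, lay within 5000 bp of 17 of 157 windows (10.8%). The same was true of 1.38% of WT-unmethylated windows and of 0.552% of windows that stayed under 10% in both knockin libraries. Since WT levels differed, the shares were also taken by WT level: 14 of 137 selected windows at 5 to under 10% in WT (10.2%) and 4.13% of the 3025 others, and 3 of 20 (15%) and 1.78% of the 4544 others at 2 to under 5%. The distance of 5000 bp was chosen after the values were seen. These counts describe the windows and are no enrichment test.

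The listed homeobox factors near a selected window were Dmbx1, Hmx2, Irx2, Isl1, Pou3f2, Tlx3 and Uncx, with 9 windows. The other listed developmental factors were the basic helix-loop-helix factors Bhlhe23, Neurod1, Ptf1a and Twist1, with Dmrta2, Gata3 and Zic1, with 8 windows. The lists are not complete: Prox1 (4474 bp) and Foxn4 (422 bp), also developmental factors, lay near selected windows but were on no list and are not in these counts. Pou3f2, a neural factor, had its window 312 bp from the start site, at 1.46% and 2.61% in WT and 38.4% and 43.9% in the knockin. The window at Isl1, a motor neuron and heart factor, 83 bp from the start site, was at 6.06% and 3.20% in WT and 64.6% and 45.2% in the knockin. At Zic1, a zinc finger factor of the neural tube, 68 cytosines of 60 CpGs gave 8.73% and 3.26% in WT and 38.5% and 32.9% in the knockin, the most cytosines of the group. The window near Gata3, a regulator of T cells as well as of development, lay on chromosome 2 from 9804013 to 9804974. It was at 7.70% and 8.76% in WT and 30.6% and 35.4% in the knockin. The matched start site of Gata3 lay within 5000 bp of it, and that of 4930412O13Rik was nearer, at 1140 bp.

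The other lists had 3 windows or fewer. Neurotransmitter receptors and ion channels had 3, near Gabbr1 and Ntsr1 (1.91%, against 0.405% of WT-unmethylated windows), and Wnt ligands and antagonists had 2, near Wnt3 and Wnt7a (1.27%, against 0.197%). Lymphoid regulators had the Gata3 window alone (0.637%, against 0.226%). Germline genes, tumour suppressors, stem and myeloid regulators, imprinted genes and DNA methylation enzymes and readers had 0 windows within 5000 bp, with 27, 45, 24, 13 and 16 of their genes placed. Their shares among WT-unmethylated windows were 0.0405, 0.439, 0.330, 0.0520 and 0.173%, so a count of 0 in 157 windows is near the background and says nothing particular of the selected ones.

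**Figure D4:**
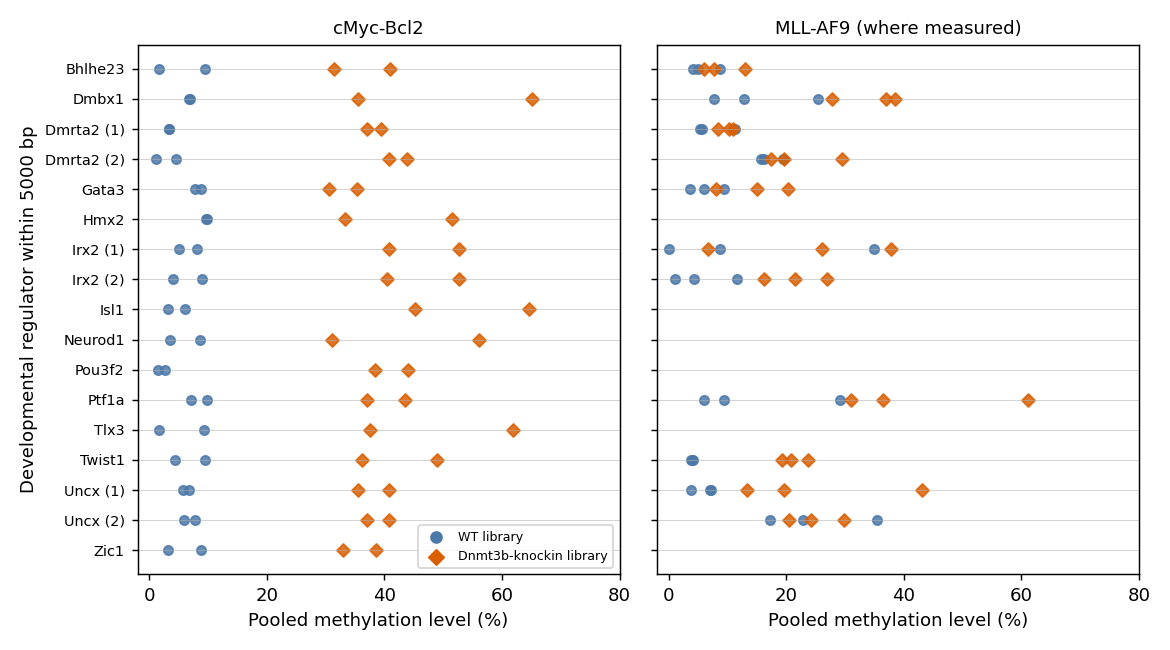
Pooled methylation level in percent (horizontal axes) of the 17 selected windows within 5000 bp of the matched start site of a listed developmental regulator (vertical axis), in the cMyc-Bcl2 libraries and, where measured, the MLL-AF9 libraries; circles are WT and diamonds knockin libraries. The cMyc-Bcl2 groups are apart by the rule, while in MLL-AF9 windows such as those at Twist1 and Uncx (1) are apart and that at Dmrta2 (1) overlaps.

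The MLL-AF9 libraries, which the rule did not use, measured 78 of the 161 windows with at least 3 cytosines at 10 reads in all 6 libraries. These 78 had medians of 33.5 listed CpGs and 13 cytosines of the rule, against 22 and 6 in the 83 not measured. Their MLL-AF9 levels pool the cytosines measured there, which need not be those of the rule. The median level over the 78 windows was 9.70%, 9.34% and 7.20% in the WT libraries and 23.9%, 22.4% and 16% in the knockin libraries. All 3 knockin medians thus lay above all 3 WT medians. The knockin mean was higher in 71 of 78 windows (91.0%). The same was true of 75.2% of all 27129 windows tested in MLL-AF9 and of 71.8% of windows under 10% in both cMyc-Bcl2 WT libraries. The median difference was 8.97 points (quartiles 4.99 and 15.9), against 0.785 points over all windows tested and 0.319 over windows under 10% in both cMyc-Bcl2 WT libraries. The 123 windows whose selected cytosines held 20 pooled read calls or more in each MLL-AF9 library had a median difference of 8.96 points.

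In MLL-AF9 the knockin libraries all lay above the WT libraries, with a mean at least 10 points higher, in 24 of the 78 windows (30.8%), against 7.04% of all windows tested. The opposite held in 0 of 78 windows and in only 42 of all 27129, so that 0 is near the background. The share at least 10 points higher followed the cMyc-Bcl2 classes: 0.211% of 11833 windows that stayed under 10% in both knockin libraries, 4.60% of 1325 between, 11.4% of 255 at 30% or more in 1 knockin library, and 30.8% of the 78. Knockin replicate 3 was above all WT libraries in 38 windows (48.7%), replicate 1 in 53 (67.9%) and replicate 2 in 56 (71.8%), against 35.8%, 43.5% and 45.8% of all windows tested. Without knockin replicate 3 the count without overlap was 37 of 80 windows, against 10.2% of all.

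**Figure D5:**
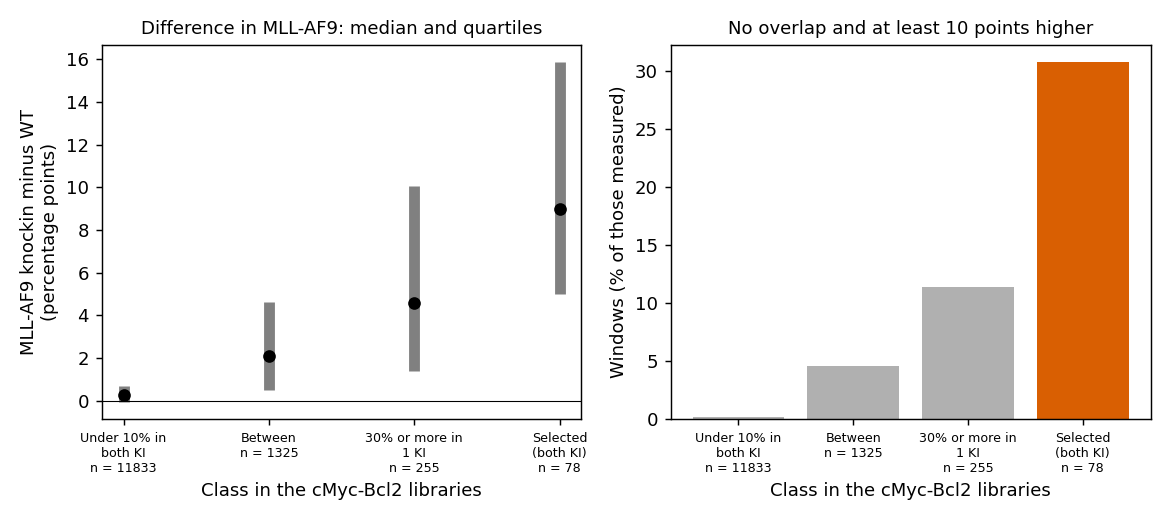
Left, MLL-AF9 knockin minus WT mean in percentage points (vertical axis; point, median over windows; bar, quartiles) by class in the cMyc-Bcl2 libraries (horizontal axis); right, the percentage of windows in which the MLL-AF9 groups did not overlap and the knockin mean was at least 10 points higher. The median rises from 0.267 to 8.97 points and the share from 0.211% to 30.8%.

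The selected windows also had a higher MLL-AF9 WT level than most, and a window near 0 can seldom gain 10 points. Among windows with an MLL-AF9 WT mean of 5 to under 10%, 12 of 34 selected windows (35.3%) and 16.7% of 1562 others were at least 10 points higher without overlap, with median differences of 10.8 and 4.23 points. At 10 to under 20% the shares were 9 of 25 (36.0%) and 19.4% of 1524. At 20% or more they were 1 of 11 and 11.3% of 10182. Among windows at 5 to under 10% in the cMyc-Bcl2 WT libraries, the share was 23 of 68 selected windows (33.8%) and 4.33% of 2079 others.

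No single window passed the test in MLL-AF9. The quasi-binomial fit moderated with limma called 0 of the 78 windows higher in the knockin at an adjusted p under 0.05 and 10 points, against 0.0479% of all windows, 13 in number. With calls this rare, a count of 0 in 78 windows is near the background and says nothing particular of the selected ones. The lowest adjusted p among the 78 was 0.0932, at Twist1. The same fit gave an unadjusted p under 0.05 with a higher knockin level in 36 of the 78, against 13.5% of all windows. With limma on M-values these were 31 of the 78, against 3489 of all 27129 windows. That method called 0 of all windows, so its 0 among the 78 adds nothing.

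Window by window, the largest gaps between the MLL-AF9 groups were as follows. A window on chromosome 4 (130185238 to 130185306, 147999 bp from the nearest matched start site) was at 12.2%, 2.46% and 1.10% in WT and 63.5%, 42.0% and 35.9% in the knockin, a difference of 41.9 points (adjusted p = 0.130). A window on chromosome 7 (134094141 to 134094223) was at 6.25%, 6.76% and 4.48% in WT and 40.5%, 42.1% and 23.9% in the knockin (adjusted p = 0.128). The groups did not overlap in either window, but 1 knockin library stood away from the other 2 in each. The window 1536 bp from the start site of Twist1, a mesodermal factor, on chromosome 12 (34640906 to 34641000), had the narrowest spread between WT libraries of the 5, at 3.96%, 4.21% and 3.80% in WT (SD 0.208, n = 3) and 20.7%, 23.6% and 19.2% in the knockin (SD 2.25, n = 3). The remaining pair lay on chromosome 3 (88045010 to 88045395) and, 193 bp from the start site of C1qtnf2, a secreted C1q-family protein, on chromosome 11 (43288001 to 43288048). They differed by 22.9 and 26.1 points, with adjusted p of 0.139 and 0.264.

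Some windows were methylated in MLL-AF9 without the knockin. Among the 78 windows measured there, the highest mean WT level was on chromosome 7 (108079423 to 108079994, 55 cytosines), at 38.4%, 70.3% and 31.7% in WT and 94.0%, 43.8% and 42.6% in the knockin, against 9.70% and 7.15% in the cMyc-Bcl2 WT libraries. The proximal Gabbr1 window followed, at 27.5%, 45.1% and 36.3% in WT and 53.5%, 65.4% and 48.2% in the knockin. A window on chromosome 11 (96326038 to 96326116) was at 46.0%, 9.89% and 48.7% in WT and 35.0%, 28.8% and 34.0% in the knockin. In the first and the last of these the groups overlapped, and in all 3 the WT libraries differed widely among themselves.

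The rule itself, applied to MLL-AF9 (all WT under 10%, all knockin at 30% or more), took 8 of 27129 windows, 6 of them measured in cMyc-Bcl2. It shared 0 with the selected windows. Of the 6, 0 were under 10% in both cMyc-Bcl2 WT libraries, so no window could be shared and this count does not compare the models. Of the 78 windows, 21 were under 10% in all 3 MLL-AF9 WT libraries, and 7 of these were at 10% or more in all 3 knockin libraries, against 1.93% of the 14351 such windows among all tested. At least 1 knockin library was at 30% or more in 36 windows (46.2%) and all 3 in 6 (7.69%), against 40.9% and 35.1% of all windows tested, many of which were methylated in WT too. The 11 measured windows near a developmental regulator had a median difference of 8.94 points, close to the 8.99 points of the other 67, and 5 of the 11 (45.5%) and 19 of the 67 (28.4%) were at least 10 points higher without overlap. The difference between these shares was not tested.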

How the data were processed

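Each deposited file pairs a CpG position with counts of methylated and unmethylated reads, as written by the authors (read order settled from mitochondrial CpGs). The submitters' processing notes name build mm9, Bismark 0.7.4, Trim Galore 0.2.2, methylKit and CASAVA, with no settings. Neighbouring positions occur within 1 file (421825 to 889699 pairs), so strands are not joined; each listed cytosine counted by itself. Unequal MspI fragment coverage decides which CpGs are measured.

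Reads of cytosines at 10 or more reads were pooled in 1000-bp windows with at least 3 cytosines. MLL-AF9 windows were fitted on methylated and unmethylated read counts with a quasi-binomial model (limma 3.58.1, R 4.3.3, dispersion held at 1 or above, F-test, Benjamini-Hochberg over 27129 windows), tested on simulated data; unadjusted counts are descriptions. The rest used scipy 1.17.1, numpy 2.4.6 and pandas 2.3.3 under Python 3.11.15. Promoters are from RefSeq, GRCm38.p6; no coordinate was converted.

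Windows named were the 8 largest gaps in cMyc-Bcl2, the 3 longest runs, the 5 largest gaps and 3 highest WT levels in MLL-AF9, and 3 on each side of the knockin bound; genes near windows by distance were added later. The windows and gene lists were chosen with earlier results of these data known. Alternatives were other read and cytosine minimums, windows and bounds, levels averaged per cytosine, a coverage cap, leaving out chromosomes 15 and 16 or each library, M-values with 0.5 added, a dispersion trend and, added later, joined strands, the rule's own cytosines and other distances. Sex chromosomes were not analysed here.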

Additional observations from a re-analysis of the deposited data

How the results depend on the processing

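The number of selected windows stayed within 1.5 times of 161 for 20 and 5 reads per cytosine (136 and 172), 500-bp and shifted windows, at least 5 cytosines, levels averaged per cytosine, the coverage cap, leaving out chromosomes 15 and 16, and joined strands, chosen after seeing the data (153, of which 126 were among the 161). The members moved more than the number: 70 of the 136 and 116 of the 172 were among the 161. At least 10 cytosines left 69, knockin bounds of 20% and 50% gave 466 and 18, and WT bounds of 5% and 20% gave 20 and 737. Leaving out 1 cMyc-Bcl2 library gave 332 to 587 windows. In MLL-AF9 the median difference was 7.34 to 10.3 points without each library and kept its sign in every alternative run. The count without overlap was 26 to 37 without each library, of 79 to 92 windows measured and against 7.47 to 10.5% of all windows, and 2 of the 4 windows measured at 20 reads per cytosine, against 1.09%. The fit called 0 of the selected windows in every alternative run. In the main run it called 0.0479% of all windows, so a count of 0 is near the background and is no sign of stability. With M-values 0 of all windows were called, so that run could give no other count. The share of all windows called is not given for the other runs. Requiring 16 CpGs in register gave 7 windows with a promoter, and a distance of 2000 bp gave 11 near a developmental regulator; both come from stricter matching. No paired analysis was possible because the labels number no replicates: the numbers used here are names in accession order and tie no libraries together. Depth limits the MLL-AF9 comparison, where 83 of 161 windows had no value.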
